A study of Mus musculus with 24 samples.

Results

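Acetylcholine in the hippocampus acts on muscarinic receptors and is removed by cholinesterases. Transcripts of the 5 muscarinic receptor genes (Chrm1 to Chrm5) and of the cholinesterase genes Ache and Bche were followed here through the hippocampus of mice whose sires had received nicotine or saline. These 7 genes were taken by symbol from a table of 51912 genes, and all 7 had enough counts to be tested in every comparison. The 24 libraries came from 12 C57BL/6J offspring, each giving 1 ventral and 1 dorsal hippocampus library. The offspring were of nicotine-sired males, nicotine-sired females, saline-sired males and saline-sired females, with 3 animals in each, so that 8 groups of 3 libraries arose. The treatment was given to the sires, who received nicotine or saline chronically. The labels name no treatment of the offspring themselves. The sources used here state neither their age nor the nicotine dose nor how many sires there were. The 3 animals of 1 sire treatment and sex share a number in their titles. If that number marks a sire or a litter, it cannot be told apart from the group, and p-values then measure only the spread between these animals.

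Muscarinic receptors are G protein-coupled receptors. M1, M3 and M5, encoded by Chrm1, Chrm3 and Chrm5, couple to Gq and phospholipase C and can close the M-type potassium channels, which raises the excitability of a neuron. M2 and M4, encoded by Chrm2 and Chrm4, couple to Gi and Go, lower cyclic AMP and open inward rectifier potassium channels, and they include the presynaptic receptors that curb transmitter release. Acetylcholinesterase, the product of Ache, ends the signal by splitting acetylcholine at the synapse, and butyrylcholinesterase, the product of Bche, is a second enzyme with a broader range of substrates. Most acetylcholine of the hippocampus is released by axons of neurons that lie outside it, in the septum, so a hippocampal library holds the transcripts of the receptors but few of the transmitter's synthesis.

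The coding sequences show what the families share. Each receptor has 1 copy in frame of the DRY motif at the inner end of the third membrane helix, which takes part in G protein activation. Capitals mark its codons in the GENCODE M21 transcripts, written 5′ to 3′:
Chrm1: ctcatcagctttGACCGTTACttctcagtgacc
Chrm2: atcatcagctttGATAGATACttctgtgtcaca
Chrm3: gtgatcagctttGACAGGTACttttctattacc
Chrm4: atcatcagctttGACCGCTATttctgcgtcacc
Chrm5: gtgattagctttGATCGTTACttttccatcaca
The codons differ in spelling between all 5 receptors although the encoded motif is the same. The cholinesterases have 1 copy each of the esterase motif that holds the catalytic serine, with its codons in capitals:
Ache: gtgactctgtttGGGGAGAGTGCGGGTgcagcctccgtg
Bche: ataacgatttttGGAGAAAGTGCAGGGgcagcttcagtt
Over whole transcripts, the longest run of identical bases between any pair of the 7 genes was 11 to 29 bases, against reads of 150 bases, so that whole reads could not match several members equally.

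The genes lie on 6 chromosomes of GRCm38. Chrm1 is at chr19:8663789-8683587 on the plus strand, Chrm2 at chr6:36388084-36528414 on the plus strand and Chrm3 at chr13:9875486-10360847 on the minus strand. Chrm4 (chr2:91927249-91928688, plus strand) and Chrm5 (chr2:112479171-112480769, minus strand) share chromosome 2. Ache is at chr5:137287519-137294466 on the plus strand and Bche at chr3:73635808-73708415 on the minus strand. GENCODE M21 gives Chrm4 and Chrm5 as 1 exon of 1440 and 1599 bp that holds coding sequence only, whereas the other members have 4623 to 6741 bp of exon with untranslated ends. Exons on the opposite strand overlap Chrm1 (329 bp of Gm22820), Chrm2 (142 bp of 9330158H04Rik) and Ache (98 bp of Gm42456). Whether reads were counted by strand is not given in the sources used here, so reads of these stretches cannot be assigned with certainty.

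Total counts ran from 32049770 to 47486547 per library with a median of 39578834. Levels are given as CPM, the count scaled to a library of 1e+06, on library sizes scaled by the trimmed mean of M values (TMM). The regional labels held in the marker genes: Lct and Wfs1, marking dorsal hippocampus, were lower in ventral libraries (log2 fold change -2.57 ± 0.31 and -0.46 ± 0.14, standard error), and Trhr, Dcn, Nr2f2 and Htr2c, marking ventral hippocampus, were higher (0.94 to 2.75). These 6 genes passed an adjusted p of 0.05 in edgeR's quasi-likelihood test over all genes. The cholinergic neuron genes Chat (choline acetyltransferase) and Slc18a3 (vesicular acetylcholine transporter) had 0 to 42 counts in any library. Both peaked in the ventral library of saline-sired female C, with 36 and 42 counts, against at most 12 and 16 in the other 23 libraries. Slc5a7, the high-affinity choline transporter, had 88 counts in that library and 13 to 38 in the others, and the summed thalamus and habenula markers had 47.4 CPM there, against 17.3 to 21 in the other ventral libraries. Nicotine-sired female A stood apart in the dorsal set, with 372 summed CPM of hippocampal neuron markers against 593 to 849 in the other 11 dorsal libraries.

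Chrm1 was by far the most abundant muscarinic receptor transcript in all 24 libraries. Per kb of exon it averaged 32.4 ± 2.44 CPM in ventral and 38.8 ± 4.41 CPM in dorsal libraries (SD, n = 12 each). In ventral libraries Ache (9.98 ± 1.08 CPM per kb) and Chrm4 (9.65 ± 1.16 CPM per kb) came next and did not differ beyond their spread, followed by Chrm3 at 6.70 ± 0.76 CPM per kb. In dorsal libraries Chrm3 (10.5 ± 1.36 CPM per kb) and Ache (8.95 ± 0.72 CPM per kb) came next, with ranges of 1 SD that met, and Chrm4 followed at 6.48 ± 1.53 CPM per kb. Chrm2 (1.24 ± 0.28 CPM per kb ventral, 1.18 ± 0.53 CPM per kb dorsal), Chrm5 (1.22 ± 0.37 CPM per kb ventral, 0.65 ± 0.34 CPM per kb dorsal) and Bche (0.56 ± 0.15 CPM per kb ventral, 0.63 ± 0.14 CPM per kb dorsal) were the low members. The per-length level of Chrm4 and Chrm5 rests on coding exon alone, so their rank against genes with untranslated ends depends on that annotation. Fewest counts stood behind Chrm5, with 45 to 140 per ventral and 14 to 84 per dorsal library, and most behind Chrm1, with 6898 to 9911 ventral and 8190 to 12400 dorsal.

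As shares of the summed receptor level per kb, Chrm1 made up 63.3 ± 2.72% in ventral and 67.3 ± 3.35% in dorsal libraries (SD, n = 12 each). Chrm4 made up 18.9 ± 2.33% in ventral and 11.3 ± 2.69% in dorsal libraries, and Chrm3 made up 13.1 ± 1.21% in ventral and 18.2 ± 1.24% in dorsal libraries. Chrm4 was thus the second receptor transcript of the ventral hippocampus and Chrm3 that of the dorsal hippocampus on this scale. Chrm2 (2.41 ± 0.53% ventral, 2.1 ± 1.1% dorsal) and Chrm5 (2.36 ± 0.63% ventral, 1.14 ± 0.62% dorsal) were the minor receptors in both regions.

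**Figure D1:**
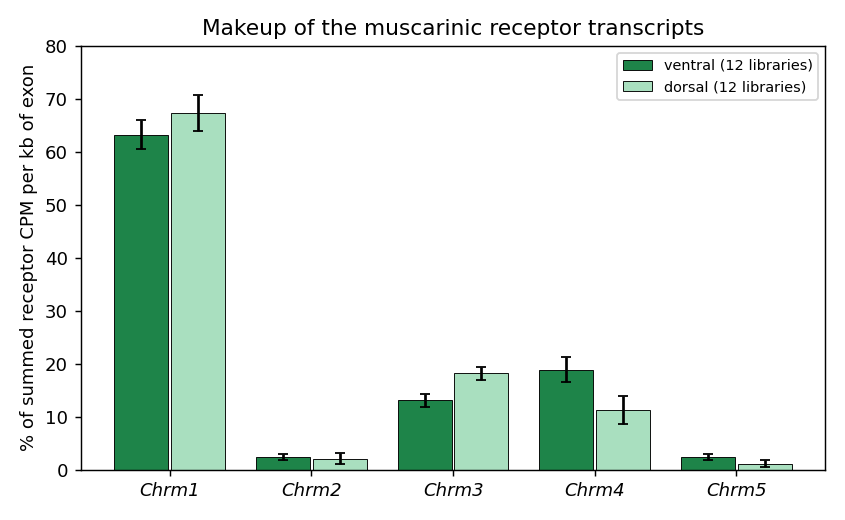
Share of each receptor gene in the summed CPM per kb of exon of the 5 muscarinic receptor genes, in percent; bars are means over the 12 ventral and the 12 dorsal libraries and error bars are SDs. Chrm1 held the largest share in both regions, Chrm4 was larger in ventral and Chrm3 larger in dorsal libraries.

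The regions differed in 5 of the 7 genes. Ventral libraries had more Chrm4, Chrm5 and Ache and less Chrm1 and Chrm3 than dorsal libraries, while Chrm2 and Bche did not pass the test. The comparison used 1 edgeR fit of all 24 libraries, with Benjamini-Hochberg adjustment over 19849 genes and a threshold of 0.05. In the same comparison 29.2% of all genes tested passed, 14.3% as higher and 14.9% as lower in ventral libraries. DESeq2 called 5 members as well, against 25.8% of genes. The main edgeR fit did not pair the ventral and dorsal libraries of 1 animal. With the animal as a block, edgeR called the same 5 members and 7042 genes, against 5803 genes in the main fit. In bulk tissue, fewer cells of a type and less RNA per cell cannot be told apart.

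Among the Gq-coupled receptors, Chrm3 did not overlap between the regions. It had 34.5, 42.6 and 48.6 CPM (lowest, median and highest) in the 12 ventral libraries, against 52.4, 63.9 and 82.1 CPM in the 12 dorsal libraries. No ventral library reached the lowest dorsal one. The regions did not overlap, in either direction, for 1.01% of genes tested. The ventral level of Chrm3 was lower in 12 of 12 animals, with a median ratio of 0.637. The log2 fold change was -0.65 ± 0.06 (edgeR, adjusted p = 2.32e-07). Chrm1, the M1 gene of pyramidal neurons, had 175.9, 211 and 230.8 CPM in ventral libraries, against 215.4, 245.7 and 321.9 CPM in dorsal libraries. The ranges overlapped, but only saline-sired male A had a higher ventral than dorsal level, at a ratio of 1.01, and the log2 fold change was -0.26 ± 0.05 (edgeR, adjusted p = 0.000538). Chrm5, the rarest receptor by counts, went the other way, with 1.21, 1.85 and 3.22 CPM in ventral and 0.358, 0.907 and 2.1 CPM in dorsal libraries. It was higher in the ventral library of all 12 animals, with ratios of 1.14 to 3.71, although the ranges overlapped. Its log2 fold change of 1.0 ± 0.15 was the largest among the 7 members (edgeR, adjusted p = 2.98e-05).

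The Gi-coupled receptors differed from each other. Chrm4 had 12.2, 13.8 and 16.9 CPM in ventral libraries, against 6.62, 9.16 and 12.7 CPM in dorsal libraries. It was higher in the ventral library of 12 of 12 animals, by a median ratio of 1.55, and its log2 fold change was 0.58 ± 0.10 (edgeR, adjusted p = 0.000178). The ranges overlapped through 1 dorsal library, nicotine-sired female A at 12.7 CPM, which was above 5 of the 12 ventral libraries. Chrm2 had 5.56, 7.38 and 11.1 CPM in ventral libraries and 3.52, 6.34 and 13.2 CPM in dorsal libraries, the ventral range lying inside the dorsal one. Its log2 fold change of 0.13 ± 0.15 did not pass (edgeR, adjusted p = 0.54), and 8 of 12 animals were higher in the ventral library.

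Of the cholinesterases, Ache had 37.0, 45.7 and 57.3 CPM in ventral and 37.4, 41.8 and 49.5 CPM in dorsal libraries, with wide overlap. It was higher in the ventral library of 9 of 12 animals, by a median ratio of 1.14, and the log2 fold change was 0.15 ± 0.04 (edgeR, adjusted p = 0.00681). The highest value belonged to ventral saline-sired female C, the library with the most Chat and Slc18a3, and without that animal the log2 fold change was 0.13 ± 0.04 (edgeR, adjusted p = 0.0226). Bche had 2.48, 3.28 and 5.24 CPM in ventral and 2.84, 4.15 and 6.14 CPM in dorsal libraries. It was higher in the ventral library of 2 of 12 animals, and its log2 fold change of -0.17 ± 0.13 did not pass (edgeR, adjusted p = 0.333).

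**Figure D2:**
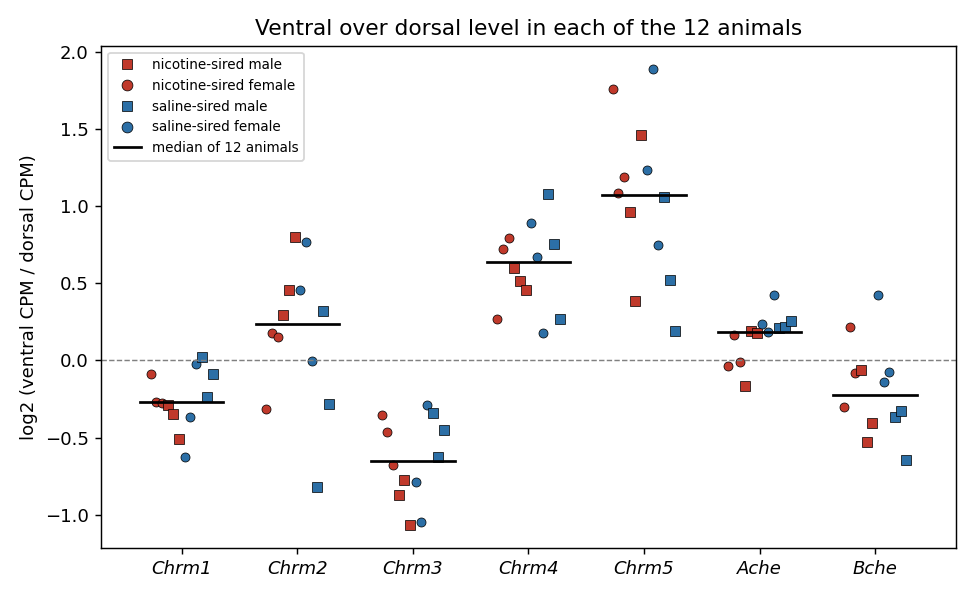
Log2 ratio of the ventral to the dorsal CPM of each gene in each of the 12 animals (red nicotine-sired, blue saline-sired; squares male, circles female), with the median as a line. All Chrm4 and Chrm5 points lie above 0 and all Chrm3 points below it, while Chrm2 points lie on both sides.

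Cell type markers moved with region too, in the comparison where 29.2% of all genes passed. Hippocampal neuron markers were lower in ventral libraries for 5 of 6 genes, with sums of 320 to 614 CPM in ventral and 372 to 849 CPM in dorsal libraries. Oligodendrocyte markers were lower for 4 of 4 genes, with sums of 2650 to 3870 CPM in ventral and 3900 to 7060 CPM in dorsal libraries. Choroid plexus markers were lower for 8 of 10 genes and reached 1960 CPM in ventral and 5620 CPM in dorsal libraries. Of 6 interneuron markers, Sst and Lhx6 were higher and Npy lower, with sums of 725 to 900 CPM in ventral and 551 to 864 CPM in dorsal libraries. Thalamus and habenula markers were lower for 2 of 5 genes, with sums of 17.3 to 47.4 CPM in ventral libraries, of which 11 had at most 21 CPM, and 29.3 to 61.3 CPM in dorsal libraries. The part of these markers in the regional differences of the receptors was not tested, except that all 5 calls held in a fit that took choroid plexus markers as a covariate.

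The promoters of Chrm3 and Chrm4, which differed between the regions in opposite directions, are shown for their different makeup. Their exchange of rank held per kb of the annotated exons only: in CPM, Chrm3 was above Chrm4 in both regions. They are the RefSeq windows (GRCm38.p6) of 250 bases before to 50 after the annotated start, and such windows were found for 6 of the 7 members. Capitals mark the GC box GGGCGG on either strand, with overlapping matches run together; the TATA box TATAAA and the cyclic AMP response element TGACGTCA were searched on both strands too and matched in neither window.
Chrm3 (chr13:10360754-10361053, minus strand): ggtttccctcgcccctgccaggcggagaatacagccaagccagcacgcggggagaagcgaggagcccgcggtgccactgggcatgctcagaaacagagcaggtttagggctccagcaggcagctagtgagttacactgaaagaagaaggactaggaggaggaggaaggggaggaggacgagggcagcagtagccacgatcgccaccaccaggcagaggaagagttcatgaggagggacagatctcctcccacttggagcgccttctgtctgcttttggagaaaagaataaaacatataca
Chrm4 (chr2:91921939-91922238, plus strand): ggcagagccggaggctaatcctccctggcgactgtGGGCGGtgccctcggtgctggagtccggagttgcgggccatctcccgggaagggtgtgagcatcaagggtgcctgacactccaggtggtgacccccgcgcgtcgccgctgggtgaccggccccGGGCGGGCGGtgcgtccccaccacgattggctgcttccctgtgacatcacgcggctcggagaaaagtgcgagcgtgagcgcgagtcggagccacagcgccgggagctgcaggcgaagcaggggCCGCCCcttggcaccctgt
The Chrm4 window holds 4 GC boxes, 30 CpG pairs and 70.7% G and C, and the Chrm3 window holds 0 GC boxes, 11 CpG pairs and 57.3% G and C. Of all 32851 such windows, 35.7% hold a GC box. The windows of Ache and Chrm5, both also higher in ventral libraries, hold 4 and 0 GC boxes at 74% and 39% G and C. Whether promoter makeup bears on the regional differences was not tested. The Chrm4 window lies upstream of the single exon that GENCODE M21 gives for this gene, so the RefSeq transcript has sequence that the exon length used above leaves out.

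Other genes of the pathway were read from lists, in the comparison that called 14.3% of all genes as higher and 14.9% as lower in ventral libraries. Of 9 tested genes for the handling of choline and acetylcholine, 0 were higher and 2 lower in ventral libraries: the choline transporter gene Slc44a1 (log2 fold change -0.49 ± 0.07; 64.9 CPM ventral, 91.6 CPM dorsal) and the choline kinase gene Chka (-0.14 ± 0.03; 38.5 CPM ventral, 42.4 CPM dorsal). The ventral Chka mean joins sire groups that differed, as given further below. In saline-sired offspring alone, the ventral mean was not below this dorsal mean. Prima1, which anchors acetylcholinesterase in the membranes of brain cells, was lower (-0.59 ± 0.17; edgeR, adjusted p = 0.0106), at 0.95 CPM in ventral and 1.43 CPM in dorsal libraries. Colq, the collagen tail gene, did not pass at 0.16 ± 0.23. Of 12 genes of the Gq arm, 1 was higher and 4 lower, among them the M-channel gene Kcnq3 (-0.38 ± 0.06) and the protein kinase C gene Prkca (-0.48 ± 0.07). The median of that list was -0.12, against -0.01 over all genes tested. Of 10 genes of the Gi arm, 4 were higher and 3 lower, with the adenylyl cyclase genes Adcy5 (0.39 ± 0.05) and Adcy1 (-0.77 ± 0.07) in opposite directions and a median of 0.04. Of 8 receptor regulators, 1 was higher and 1 lower, with a median of 0.04. The lower one was Rgs14 (-0.77 ± 0.11), an inhibitor of Gi signalling.

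By sire treatment, no member passed the test. This comparison asks whether nicotine given to the sire changed these transcripts in the offspring. Of the 7 members, 0 were called in dorsal and 0 in ventral libraries over both sexes, where edgeR called 0.0784% of 19130 dorsal and 1.75% of 19224 ventral genes. In each region 1 member had an unadjusted p under 0.05, Bche in dorsal libraries (10.8% of genes) and Ache in ventral libraries (15.7% of genes). DESeq2 called 0 members in either, against 0.914% of dorsal and 3.07% of ventral genes. Bche, the minor cholinesterase, had 3.27, 4.63 and 6.14 CPM (lowest, median and highest of 6) in dorsal libraries of nicotine-sired and 2.84, 3.79 and 4.73 CPM in those of saline-sired offspring, with overlap. The log2 fold change was 0.32 ± 0.15 (edgeR, adjusted p = 0.455), and without nicotine-sired male B it was 0.20 ± 0.13 (edgeR, adjusted p = 0.725). In ventral libraries the log2 fold change was 0.30 ± 0.19 (edgeR, adjusted p = 0.463), with 0.15 ± 0.24 in the fit with choroid plexus markers (edgeR, adjusted p = 0.839) and 0.47 ± 0.17 without saline-sired female A (edgeR, adjusted p = 0.164). Ache had 37.0, 45.0 and 48.2 CPM in ventral libraries of nicotine-sired and 43.4, 47.5 and 57.3 CPM in those of saline-sired offspring, again with overlap, at -0.14 ± 0.06 (edgeR, adjusted p = 0.301) and at -0.24 ± 0.07 in the fit with choroid plexus markers (edgeR, adjusted p = 0.116). Choroid plexus markers differed in the same ventral comparison with a median log2 fold change of 1.71, although 0 of 10 passed the test. Called higher there were 3 of 4 blood, 2 of 4 microglia and 1 of 5 endothelium and pericyte markers. Apart from the fits with choroid plexus markers, the part of these markers in the Ache and Bche values was not tested. The other treatment differences over both sexes lay between -0.39 (Chrm5) and 0.23 (Chrm4) in dorsal and between -0.18 (Chrm5) and 0.15 (Chrm4) in ventral libraries. The difference in treatment effect between regions was called for 0 members and 0% of genes by edgeR and by DESeq2. Ache was the 1 member with an unadjusted p under 0.05 (-0.20 ± 0.08; edgeR, adjusted p = 0.881), as were 4.76% of genes.

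**Figure D3:**
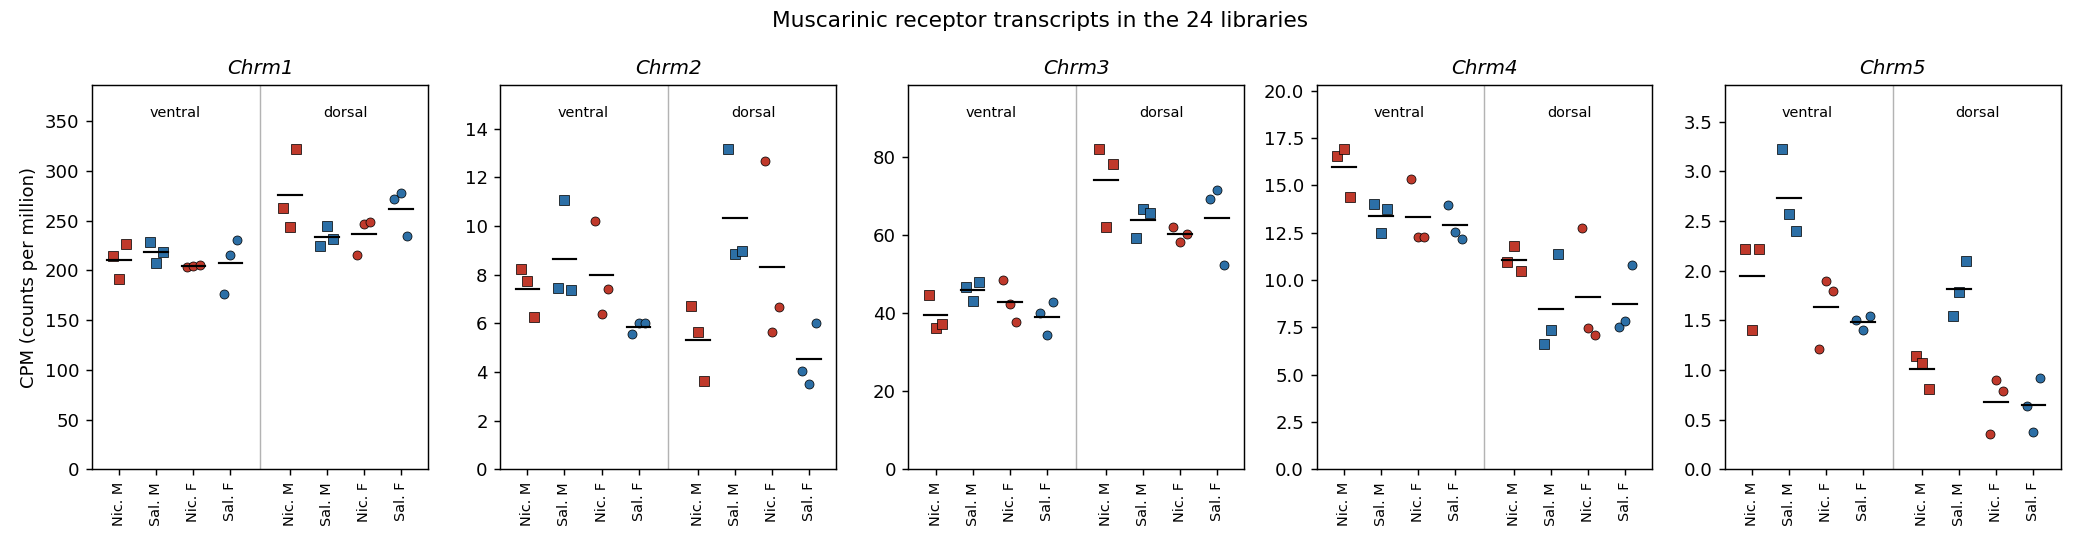
CPM of the 5 muscarinic receptor genes in each library, by region, sex (squares male, circles female) and sire treatment (red nicotine-sired, blue saline-sired); lines are means of 3. The regional shifts of Chrm3 and Chrm4 stand out. In dorsal libraries the Chrm2 values of nicotine-sired males lie below those of saline-sired males, a comparison in which 25.2% of genes did not overlap.

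Chrm2, the gene of a Gi-coupled receptor found on cholinergic terminals and on interneurons, differed by sire treatment in opposite directions in dorsal males and females by value. It had 6.73, 5.63 and 3.61 CPM in dorsal libraries of nicotine-sired males A, B and C, against 13.2, 8.87 and 8.98 CPM in those of saline-sired males. Nicotine-sired females A, B and C had 12.7, 5.63 and 6.66 CPM, against 4.05, 3.52 and 6.02 CPM in saline-sired females. Every nicotine-sired male was thus below every saline-sired male, in a comparison where 25.2% of genes did not overlap. The groups of females overlapped, since nicotine-sired female B was below saline-sired female C. The log2 fold change was -0.96 ± 0.34 in males (edgeR, adjusted p = 0.188) and 0.89 ± 0.35 in females (edgeR, adjusted p = 0.327). The treatment difference in males minus that in females was -1.85 ± 0.49 and did not pass in edgeR (adjusted p = 0.0761), where 2.24% of dorsal genes did. In that test 3 members (Chrm1, Chrm2 and Ache) had an unadjusted p under 0.05, as did 20.2% of genes. DESeq2 called Chrm2 in dorsal males (-0.96 ± 0.31, adjusted p = 0.0459; 4.93% of genes called) and in the comparison of the sexes (-1.85 ± 0.45, adjusted p = 0.00214; 6.94% of genes called). Without nicotine-sired female A, the dorsal library with few hippocampal neuron transcripts, the log2 fold change in females was 0.44 ± 0.29 (edgeR, adjusted p = 0.53) and the difference between the sexes -1.39 ± 0.39 (edgeR, adjusted p = 0.0666).

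Several marker lists differed along with Chrm2 in the dorsal libraries. The summed level of interneuron markers was 551 to 730 CPM in nicotine-sired and 717 to 815 CPM in saline-sired males, and 700 to 864 CPM in nicotine-sired and 579 to 684 CPM in saline-sired females. The glutamate decarboxylase genes Gad1 (-0.75 ± 0.17; edgeR, adjusted p = 0.0454) and Gad2 (-0.83 ± 0.19; edgeR, adjusted p = 0.0466) passed the test of the sex difference in treatment effect, 2 of 6 markers in that list. Striatum markers summed to 63.5 to 84.1 CPM in nicotine-sired and 73.3 to 113 CPM in saline-sired males, and to 77.8 to 115 CPM in nicotine-sired and 56.6 to 76.8 CPM in saline-sired females. For the treatment difference in males minus that in females, the median of the interneuron list was -0.47, against -0.02 over all genes tested. It was -0.72 for striatum, -0.93 for ventral hippocampus, -3.11 for choroid plexus, -0.555 for blood and 0.43 for hippocampal neuron markers, lists in which 0 genes passed the test. Of 4 microglia markers 1 passed as higher, at a list median of 0.09. The part of these markers in the Chrm2 values was not tested, beyond a fit with choroid plexus markers in which edgeR called 0 members. In ventral libraries Chrm2 had 8.24, 7.73 and 6.28 CPM in nicotine-sired and 7.46, 11.1 and 7.37 CPM in saline-sired males, with overlap. It had 10.2, 6.37 and 7.40 CPM in nicotine-sired and 5.56, 6.00 and 5.99 CPM in saline-sired females, without overlap, as for 19.9% of genes. The summed interneuron markers of the ventral libraries were 754 to 799 CPM in nicotine-sired and 792 to 900 CPM in saline-sired males, and 796 to 823 CPM in nicotine-sired and 725 to 756 CPM in saline-sired females. The ventral log2 fold changes of -0.22 ± 0.18 in males and 0.45 ± 0.19 in females did not pass (edgeR, adjusted p = 0.627 and 0.311), nor did their difference of -0.67 ± 0.26 (edgeR, adjusted p = 0.254). Without nicotine-sired male C the value in males was -0.11 ± 0.20, and without saline-sired male B it was -0.0045 ± 0.18. Without nicotine-sired female A the value in females was 0.23 ± 0.18, and with choroid plexus markers in the fit it was 0.71 ± 0.23. For the difference between the sexes edgeR called 0 members and 1.07% of ventral genes, DESeq2 called 0 members and 2.90% of genes, and 3 members (Chrm2, Chrm3 and Ache) had an unadjusted p under 0.05, as did 14.2% of genes.

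Within each sex, edgeR called 0 of the 7 members in any of 4 comparisons. It called 1.78% of genes in dorsal males, 0.0314% in dorsal females, 3.21% in ventral males and 0.0312% in ventral females. Members with an unadjusted p under 0.05 numbered 4 in dorsal males (17.6% of genes), 2 in dorsal females (13.3%), 2 in ventral males (15.8%) and 2 in ventral females (13.9%). Besides Chrm2 in dorsal males, DESeq2 called 0 members, against 1.73% of genes in dorsal females, 3.92% in ventral males and 1.53% in ventral females. Groups of 3 did not overlap for 3 members in dorsal males (Chrm2, Chrm5 and Ache), where 25.2% of genes did not overlap. The same held for 2 in dorsal females (Ache and Bche; 18.5% of genes), 2 in ventral males (Chrm4 and Chrm5; 22.4%) and 2 in ventral females (Chrm2 and Ache; 19.9%).

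Chrm5, the M5 gene, had lower values in nicotine-sired than in saline-sired males of both regions. It had 1.14, 1.07 and 0.805 CPM in dorsal libraries of nicotine-sired and 1.55, 1.79 and 2.1 CPM in those of saline-sired males, at a log2 fold change of -0.85 ± 0.35 (edgeR, adjusted p = 0.231). It had 2.22, 1.40 and 2.22 CPM in ventral libraries of nicotine-sired and 3.22, 2.57 and 2.40 CPM in those of saline-sired males, at -0.49 ± 0.22 (edgeR, adjusted p = 0.286), and at -0.30 ± 0.22 without nicotine-sired male B (edgeR, adjusted p = 0.557). The groups did not overlap in either region, as was so for 25.2% of dorsal and 22.4% of ventral genes. Ventral hippocampus markers summed to 25.1 to 51.9 CPM in nicotine-sired and 31.4 to 98.9 CPM in saline-sired dorsal males. Their median log2 fold change was -0.81 in dorsal males, with 0 of 4 called, and 0.13 in ventral males. The part of these markers in the Chrm5 values was not tested. In females the log2 fold changes of Chrm5 were 0.07 ± 0.37 dorsal and 0.13 ± 0.23 ventral, with overlap. With choroid plexus markers in the fit they were -0.21 dorsal and -0.19 ventral. Chrm4 in ventral males had 16.6, 16.9 and 14.4 CPM in nicotine-sired and 14.0, 12.5 and 13.7 CPM in saline-sired animals, at 0.25 ± 0.10 (edgeR, adjusted p = 0.243). Chrm1 and Chrm3 overlapped in every such comparison, and their log2 fold changes lay between -0.13 and 0.24 and between -0.22 and 0.21.

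The values of Ache differed by sire treatment in ventral females and in dorsal males, without passing the test. In ventral females it had 37.0, 46.8 and 41.4 CPM in nicotine-sired and 50, 49.3 and 57.3 CPM in saline-sired animals, without overlap, as for 19.9% of genes. The log2 fold change of -0.32 ± 0.09 had an unadjusted p of 0.00211 and did not pass (edgeR, adjusted p = 0.159), and DESeq2 gave an adjusted p of 0.0546. Without saline-sired female C it was -0.25 ± 0.09 (edgeR, adjusted p = 0.482), and in the fit with choroid plexus markers it was -0.50 ± 0.11 (edgeR, adjusted p = 0.0614). Those markers summed to 99.4, 1960 and 1860 CPM in nicotine-sired and 63.1, 68.6 and 174 CPM in saline-sired ventral females, with a median log2 fold change of 3.56. Marker level and sire treatment thus largely went together in ventral females, and fits with those markers separate them poorly there, for any member. In dorsal males Ache had 49.5, 40.2 and 42.6 CPM in nicotine-sired and 38.5, 37.4 and 38.2 CPM in saline-sired animals. The log2 fold change was 0.21 ± 0.08 (edgeR, adjusted p = 0.178), and 0.13 ± 0.07 without nicotine-sired male A (edgeR, adjusted p = 0.395). The treatment difference in males minus that in females was 0.28 ± 0.11 in dorsal and 0.37 ± 0.12 in ventral libraries and did not pass in either (edgeR, adjusted p = 0.162 and 0.168). Bche had 4.07, 4.5 and 5.32 CPM in dorsal libraries of nicotine-sired and 3.70, 3.28 and 2.84 CPM in those of saline-sired females, without overlap (18.5% of genes), at 0.51 ± 0.21 (edgeR, adjusted p = 0.336). In the other 3 comparisons within a sex its log2 fold changes lay between 0.14 and 0.34 and were unsteady. Without nicotine-sired male B the value in dorsal males was -0.09 ± 0.20, and with choroid plexus markers in the fit the value in ventral females was 0.06 ± 0.38.

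**Figure D4:**
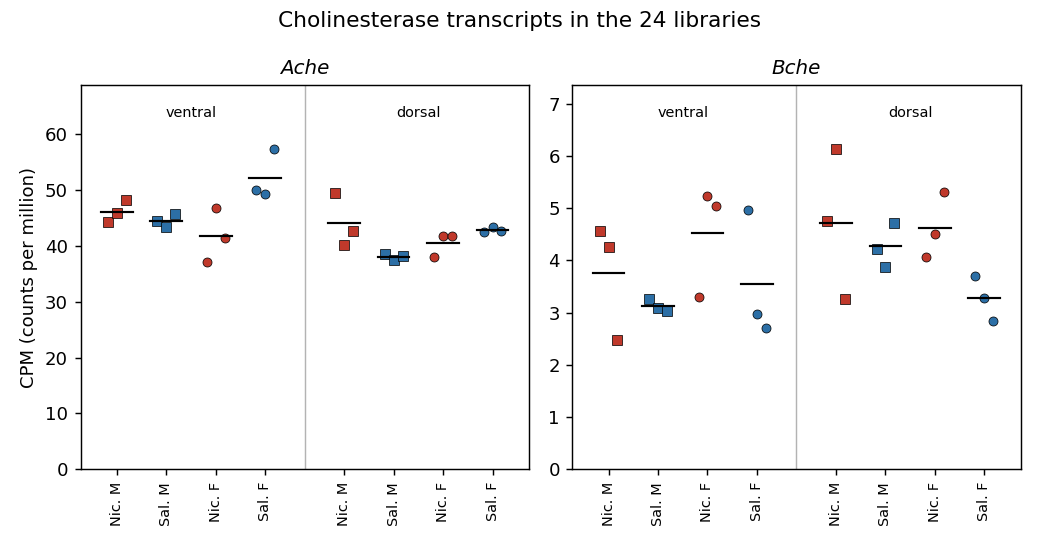
CPM of Ache and Bche in each library, by region, sex (squares male, circles female) and sire treatment (red nicotine-sired, blue saline-sired); lines are means of 3. In ventral females the 3 nicotine-sired Ache values, 37.0 to 46.8 CPM, lie below the 3 saline-sired values, 49.3 to 57.3 CPM. In that comparison 19.9% of genes did not overlap.

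**Figure D5:**
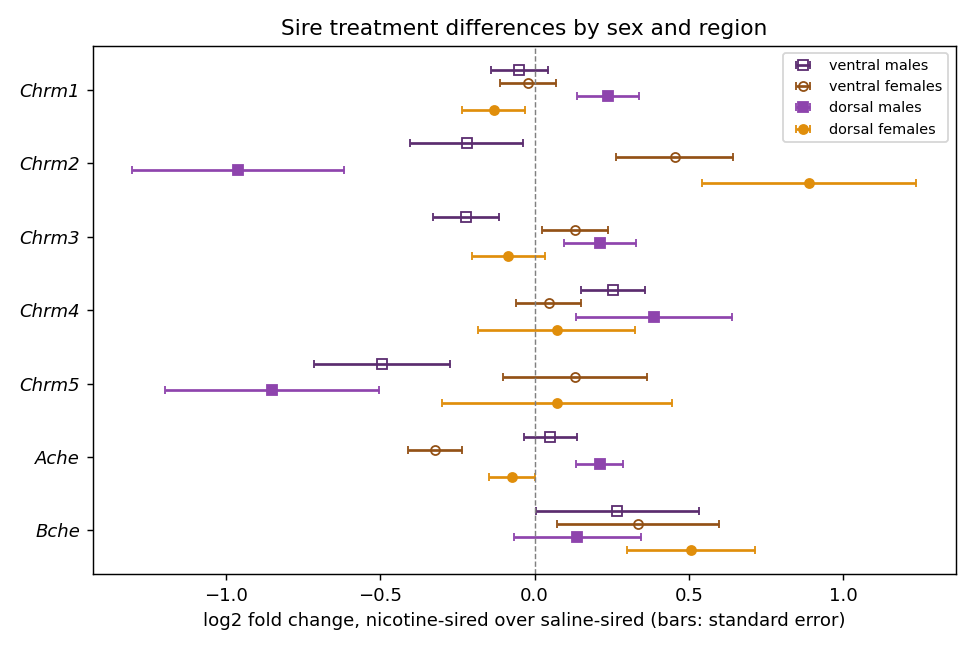
Log2 fold change of nicotine-sired over saline-sired offspring for each gene in males and females of each region (edgeR; bars are standard errors, 3 animals per group). Chrm2 lies left of 0 in males and right of 0 in females of both regions, and none of the 28 log2 fold changes passed an adjusted p of 0.05 in edgeR.

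In the pathway lists, Chka, which phosphorylates choline, was the 1 gene called by sire treatment. It was lower in ventral libraries over both sexes, at 34.0 CPM in nicotine-sired and 43.0 CPM in saline-sired offspring (log2 fold change -0.33 ± 0.04; edgeR, adjusted p = 0.00218). The same held in ventral males (-0.39 ± 0.06; edgeR, adjusted p = 0.00288). Of all genes tested, edgeR called 1.75% in ventral libraries over both sexes and 3.21% in ventral males. The other genes for the handling of choline and acetylcholine, both anchors, and the genes of the Gq arm, the Gi arm and receptor regulation had 0 calls in the 6 treatment comparisons.

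Chrm5 differed between the sexes by value, a comparison chosen after the levels were seen. It averaged 1.41 ± 0.49 CPM in males and 0.663 ± 0.25 CPM in females in dorsal libraries (SD, n = 6 each), at a log2 fold change of male over female of 1.03 ± 0.26 (edgeR, adjusted p = 0.247). In ventral libraries it averaged 2.34 ± 0.59 CPM in males and 1.56 ± 0.25 CPM in females, at 0.56 ± 0.16 (edgeR, adjusted p = 0.192). The ranges overlapped in both regions. Split by sire treatment, dorsal means of males and females were 1.81 and 0.646 CPM in saline-sired and 1.005 and 0.680 CPM in nicotine-sired offspring. Ventral means were 2.73 and 1.48 CPM in saline-sired and 1.945 and 1.63 CPM in nicotine-sired offspring. The number in the titles differs between the sexes too, so what it marks cannot be told apart from sex. Of the 7 members edgeR called 0 in either region, against 0.183% of dorsal and 0.291% of ventral genes, and Chrm5 was the 1 member with an unadjusted p under 0.05 in each, beside 8.12% of dorsal and 11.9% of ventral genes. DESeq2 called it in dorsal libraries (1.04 ± 0.28, adjusted p = 0.0352; 0.593% of genes called) and called 0 members in ventral libraries (1.38% of genes called).

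The members varied unequally from library to library. The coefficient of variation over the 12 libraries of a region was 7.53% ventral and 11.4% dorsal for Chrm1 and 10.8% ventral and 8.05% dorsal for Ache, the steadiest members. It was 30.5% ventral and 51.8% dorsal for Chrm5 and 22.8% ventral and 45.3% dorsal for Chrm2, whose dorsal levels spanned 3.74-fold. It was 11.3% ventral and 13.0% dorsal for Chrm3, 12% ventral and 23.6% dorsal for Chrm4, and 26.7% ventral and 22.1% dorsal for Bche, above Chrm2 in the ventral libraries.

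Genes whose log2 CPM followed each member most closely over the 24 libraries were ranked by Pearson's r among 13217 candidates, as a description. For Chrm1 they were Rapgefl1 (0.96), Camta2 (0.96) and Camk2b (0.95), the last a subunit gene of calcium/calmodulin-dependent kinase II. For Chrm3 they were Syt7 (0.95), Tspan5 (0.94) and Kalrn (0.93), and for Chrm4 Ttc7b (0.95), Sh2d3c (0.93) and Wnt4 (0.93). For Chrm2 they were Ankrd34c (0.91), Wisp1 (0.89) and Ptgfrn (0.87), and for Chrm5 Igsf10 (0.87), Sema3d (0.85) and Adgrg1 (0.84). The cholinesterases had looser company, with Pgm2 (0.81), Mrpl10 (0.80) and Sarm1 (0.79) for Ache and Ogn (0.72), Aebp1 (0.72) and C3ar1 (0.72) for Bche. These values share library and region: within the 12 ventral libraries Ankrd34c followed Chrm2 at 0.80 and within the 12 dorsal ones at 0.94, whereas Tspan5 followed Chrm3 at 0.88 ventral and 0.54 dorsal.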

How the data were processed

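Dorsal and ventral hippocampi were frozen and their RNA was made into stranded mRNA libraries read as single ends of 150 bases, per the labels' protocols. The table that the authors deposited holds unnormalized counts of reads for each gene. Named without a role in the submitters' processing notes are mm10 and GRCm38, Cuffdiff 2.2.1.3, Cufflinks and TopHat2 2.1.0. How reads were counted, with which strand setting and annotation, is not given in the sources used here. Groups were taken from the labels, and all 24 columns were matched to libraries by title.

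Tests on these deposited counts used edgeR 4.0.16 in R 4.3.3 with limma 3.58.1. After TMM scaling and filterByExpr by group, a robust quasi-likelihood fit gave two-sided F tests, adjusted by Benjamini-Hochberg over all genes tested (19130 dorsal, 19224 ventral, 19849 joint) at 0.05. Each region was fitted with 4 group means, and regions were compared in 1 fit of all 24 libraries. Standard errors were the log2 fold change divided by the root of F. CPM per kb used merged exons of GENCODE M21, in which all 7 members were found. The fits were tested on simulated counts with known log2 fold changes of size 1, independent libraries and 1 spread for all genes. That test did not cover smaller changes or libraries paired by animal. Figures were drawn with matplotlib 3.10.9.

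The members and lists were chosen with earlier results of these data known. All 7 members were named. From the pathway lists, up to 6 genes past the threshold in a comparison were named by smallest p. The genes for choline and acetylcholine handling and the anchor genes could be named whatever their test. Genes of like pattern were the 3 with the highest r of log2 CPM (prior count 2) and a mean of at least 1 CPM. Markers that moved with a member were named too.

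The dorsal and ventral libraries of 1 title prefix come from 1 animal and so pair. Their deviations from group means correlated with r of -0.08 to 0.53 over the 12 pairs, with a median of 0.15, and 9 pairs were over 0.1. Alternatives were edgeR with DESeq2's size factors, edgeR with all genes kept, DESeq2 1.42.0, a replicate block, a choroid plexus covariate and leaving out each of 12 animals.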

Additional observations from a re-analysis of the deposited data

Results flagged for a closer look

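In groups of 6 libraries of 1 sire treatment and region, 3 of 28 sets of member values had a library whose gap to the nearest other, as a share of the group's range, was above Dixon's 95% limit, which chance passes in about 1 of 20 sets. Chrm2 had 12.7 CPM in the dorsal library of nicotine-sired female A, against 3.61 to 6.73 CPM in the other 5 nicotine-sired dorsal libraries. The same gene had 11.1 CPM in the ventral library of saline-sired male B, against 5.56 to 7.46 CPM in the other 5 saline-sired ventral libraries. Bche had 4.97 CPM in the ventral library of saline-sired female A, against 2.70 to 3.27 CPM in the other 5.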

How the results depend on the processing

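Apart from leaving out animals, 348 of 350 planned values of single members kept their direction when called and their side of the threshold. The exceptions were Chrm2 under DESeq2 in dorsal males and in the dorsal comparison of the sexes, where members called numbered 1 and 1, and with the comparisons of the sexes added later DESeq2 called 1 member, Chrm5, in dorsal libraries. All 840 values with an animal left out kept their side of the threshold, and uncalled values changed sign in 34 of them. The cause of these changes was not tested. The number of all genes called moved more. Without a low-count filter it was 55 (dorsal), 560 (ventral), 14 (dorsal females), 99 (ventral females) and, for males against females, 54 (dorsal) and 124 (ventral). DESeq2 called 196 (dorsal), 697 (ventral), 874 (dorsal males), 275 (dorsal females), 291 (ventral females), 1272 and 533 (difference between the sexes in treatment effect, dorsal and ventral) and 116 and 246 (males against females, dorsal and ventral). The choroid plexus covariate gave 186 (ventral), 2 (dorsal females), 68 (ventral females) and 273 and 124 (difference between the sexes, dorsal and ventral).

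With the letter of the title as a replicate block, 6 (dorsal), 164 (dorsal males), 2 (dorsal females), 27 (ventral females) and 217 (dorsal difference between the sexes) genes were called, and no member's call changed. The letters name different animals, since the number in the titles differs between groups of sire treatment and sex. Deviations of libraries with 1 letter in different groups correlated with r of -0.338 to 0.279 over 36 pairs. The median was 0.002, and 6 pairs were over 0.1. Whether a letter marks a shared batch was not tested. The block by animal left the 5 regional calls in place.

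Leaving out animals gave 0 to 19 genes (dorsal, 15 with all), 176 to 457 (ventral, 337 with all), 87 to 624 (dorsal males, 341 with all), 0 to 12 (dorsal females, 6 with all), 284 to 671 (ventral males, 617 with all), 0 to 114 (ventral females, 6 with all), 76 to 837 (dorsal difference between the sexes, 428 with all), 84 to 463 (ventral difference between the sexes, 205 with all), 22 to 46 (males against females, dorsal, 35 with all) and 29 to 125 (males against females, ventral, 56 with all). The lowest library had 14 counts of Chrm5, 91 of Bche and 130 of Chrm2, and no limit of detection was computed.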
